A study of Mus musculus with 12 samples.

Results

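The histone mark H3K27ac (acetylated lysine 27 of histone H3) was mapped by ChIP-seq in cultured adipocyte progenitors of Azin2-/- and wild-type mice, and the regions described here are acetylated places between protein-coding genes that stand alone and that nearly every library detected. They were chosen by measured values in 4 steps. The 30000 peaks of highest score were taken from each of 6 libraries on chromosomes 1 to 19 and X, and overlapping peaks were merged into 127635 regions. A region was shared if at least 5 of the 6 libraries held it, meaning that 1 of their 30000 peaks lay in it. It was distal if it lay over 1 kb from both ends of every protein-coding gene span of GRCm38, and intergenic if its midpoint was outside all such spans. It was solitary if no other shared distal region lay within 12.5 kb, gene-end regions not being counted. Of 6901 shared regions, 294 (4.26%) met all conditions, against 946 solitary regions inside genes, 90 clustered distal regions and 5571 regions at gene ends.

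The groups were 3 Azin2-/- libraries (replicates 1, 2 and 8) and 3 wild-type libraries (replicates 1, 2 and 2b). Azin2 encodes antizyme inhibitor 2, which binds antizyme and so frees ornithine decarboxylase, the first enzyme of polyamine synthesis. All cells came from subcutaneous adipose tissue. They were grown for 1 week in DMEM with 4.5 g/l glucose and 10% serum, then kept for 2 days with an adipogenic mix (1 µM rosiglitazone, 1 µM dexamethasone, IBMX at 0.5 mM and insulin at 5 µg/ml) and for 5 days with insulin alone, so both genotypes carried the adipogenic treatment. The labels give no age, strain or animal per library, and do not say how replicate 2b relates to replicate 2. The p-values below therefore measure the spread between libraries, which may be technical.

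Acetylated H3K27 lies on nucleosomes beside active promoters and enhancers. Enhancers are stretches of DNA that bind transcription factors and raise transcription of a gene that may lie far away, and closely spaced groups of them form enhancer clusters. A distal acetylated region may also be the promoter of a noncoding RNA, since long noncoding RNAs (lncRNAs) and microRNA hosts start between protein-coding genes as well. MicroRNAs are short RNAs that pair with messenger RNAs mainly through their seed, bases 2 to 8.

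Libraries differed in how many peaks of the list were well supported and in width. The deposited lists held 741843 to 1216000 peaks. All 30000 listed peaks of Azin2-/- replicate 1 had a deposited q-value of 0.05 or less, against 13843 to 21544 in the other libraries. Listed peaks covered 18.6 Mb in wild-type replicate 1 and 21.2 to 30.0 Mb in the others. Read depth is unknown from these lists. Of 16 progenitor markers, each library had a listed peak at the gene ends of 4 to 8, and only Itgb1 and Ebf1 had one in every library. None of the 6 libraries had such a peak at Pdgfra, Ly6a, Dpp4 or Pi16, which are defining progenitor genes. The adipocyte genes Cebpa and Plin1 had one in all 6 libraries, while Adipoq, Cidec and Retn had none. Markers of other cells leaned to 1 genotype for macrophage genes, with peaks at 3, 3 and 2 of 7 in Azin2-/- replicates 1, 2 and 8 and 0, 1 and 1 in wild-type replicates 1, 2 and 2b. Myogenic genes had peaks at 3, 4 and 2 of 5 against 0, 0 and 2, endothelial genes at 1, 1 and 0 of 6 against 0, 0 and 0, and mural genes at 2, 1 and 2 of 4 against 0, 2 and 2. The part of other cell types in the results below was not tested.

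Among the intergenic regions, 42 covered the 300-base window around an annotated start of a noncoding gene (250 bases before to 50 after the start), and the sequences of 5 such windows are given as examples. Sequences are from RefSeq on GRCm38.p6, printed 5′ to 3′ on the strand of the gene. Capitals mark matches on either strand to 6 motifs, and touching matches run together. The promoter motifs were the GC box, searched as GGGCGG, the CCAAT box, searched by that name's letters, and the TATA box, searched as TATAAA. The others were those of AP-1, searched as TGANTCA, of C/EBP factors, searched as TTGCNNAA, and of ETS factors, searched as CCGGAAG. Dleu2 is a host of microRNAs at chr14:61682324-61682623 (minus strand), and its region had the best ranks of the 42.
Dleu2: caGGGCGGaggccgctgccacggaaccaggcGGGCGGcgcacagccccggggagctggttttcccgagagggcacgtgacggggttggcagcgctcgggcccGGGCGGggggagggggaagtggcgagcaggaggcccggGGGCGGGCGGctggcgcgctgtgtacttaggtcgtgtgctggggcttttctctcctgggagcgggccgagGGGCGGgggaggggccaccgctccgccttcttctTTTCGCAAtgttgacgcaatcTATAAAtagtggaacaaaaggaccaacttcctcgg
Gm9530 is a lncRNA near Ier5 at chr1:155083215-155083514 (minus strand), and its window has the highest G+C content of the 5 shown.
Gm9530: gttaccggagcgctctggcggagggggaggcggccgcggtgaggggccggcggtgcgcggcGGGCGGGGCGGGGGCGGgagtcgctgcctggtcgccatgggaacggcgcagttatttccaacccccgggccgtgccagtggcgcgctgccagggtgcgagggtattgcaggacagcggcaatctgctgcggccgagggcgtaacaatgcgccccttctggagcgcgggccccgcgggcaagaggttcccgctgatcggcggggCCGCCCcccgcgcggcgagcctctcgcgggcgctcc
Chaserr is a lncRNA at chr7:73558346-73558645 (minus strand) known to restrain its neighbour Chd2.
Chaserr: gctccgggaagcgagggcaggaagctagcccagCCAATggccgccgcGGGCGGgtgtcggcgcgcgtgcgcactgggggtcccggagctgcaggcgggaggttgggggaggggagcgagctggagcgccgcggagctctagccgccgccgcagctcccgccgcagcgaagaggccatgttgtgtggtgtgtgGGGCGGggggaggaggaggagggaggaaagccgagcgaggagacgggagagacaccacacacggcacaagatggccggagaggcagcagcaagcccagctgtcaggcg
2410080I02Rik at chr19:23134248-23134547 (plus strand) lies in the region beside Klf9, and Gm14321 at chr2:167777241-167777540 (plus strand) lies in the region downstream of Cebpb. These windows are shown because their regions are among the 5 of smallest p in the lower direction below, and neither window holds any of the 6 motifs. Of the 4 windows of Gm32287 in the Cebpb region, 1 holds a C/EBP motif and 1 an AP-1 motif.
2410080I02Rik: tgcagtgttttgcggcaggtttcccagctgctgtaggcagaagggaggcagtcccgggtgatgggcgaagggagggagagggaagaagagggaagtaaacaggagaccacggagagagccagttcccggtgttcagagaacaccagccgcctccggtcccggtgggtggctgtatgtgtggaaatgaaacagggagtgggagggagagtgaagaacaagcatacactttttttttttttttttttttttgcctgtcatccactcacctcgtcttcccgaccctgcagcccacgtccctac
Gm14321: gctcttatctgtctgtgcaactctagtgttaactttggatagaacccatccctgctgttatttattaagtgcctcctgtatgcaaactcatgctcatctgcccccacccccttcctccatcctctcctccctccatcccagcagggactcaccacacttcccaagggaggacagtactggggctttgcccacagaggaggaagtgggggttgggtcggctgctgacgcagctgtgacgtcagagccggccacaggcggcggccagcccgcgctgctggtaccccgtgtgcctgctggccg

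Of the intergenic regions, 6 overlapped a microRNA hairpin or lay within 1 kb of one, and 14 hairpins lay within 5 kb of these regions. A single mature RNA from each of 7 hairpins is shown to identify the microRNAs, with the seed (bases 2 to 8) in capitals. This set and the 5 windows above were chosen after the values were seen.
mmu-let-7i-5p: uGAGGUAGuaguuugugcuguu
mmu-miR-132-3p: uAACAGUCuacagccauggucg
mmu-miR-212-3p: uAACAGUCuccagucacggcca
mmu-miR-203-3p: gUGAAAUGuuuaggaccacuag
mmu-miR-760-3p: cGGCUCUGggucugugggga
mmu-miR-17-5p: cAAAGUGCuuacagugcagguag
mmu-miR-193b-3p: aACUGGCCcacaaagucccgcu
miR-132 and miR-212 lie in the same region of chromosome 11 and share the seed AACAGUC. The other 5 seeds shown differ from it and from one another.

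The 294 regions were not held equally by the libraries. Azin2-/- replicate 1 held all 294, Azin2-/- replicate 2 held 286 and Azin2-/- replicate 8 held 263. Wild-type replicate 2 held 278, wild-type replicate 2b held 266 and wild-type replicate 1 held 193 (65.6%). Wild-type replicate 1 thus stood apart, lacking 101 of the 184 regions that only 5 libraries held. In 156 of these 184 cases the lacking library had a deposited peak there below its 30000 strongest, and in 28 it had none, 21 of them in wild-type replicate 1. All 6 libraries held 110 intergenic regions (37.4%), against 54.2% of solitary intragenic regions, 50% of clustered distal regions and 64.9% of gene-end regions. These shares follow from a choice made on the same lists and carry no test.

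**Figure D1:**
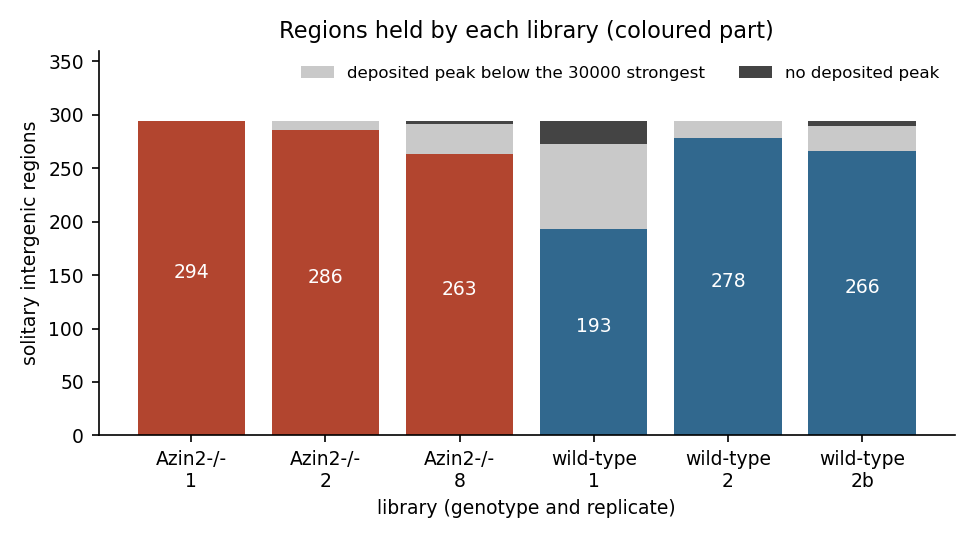
Number of the 294 solitary intergenic regions (y axis) with a peak among the 30000 strongest of each library (coloured, with its count), with a weaker deposited peak only (grey) or with none (black). Wild-type replicate 1 holds 193 of them and the other 5 libraries hold 263 to 294.

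At the limits of the rule, the member that was weakest in the last of the 5 libraries required lay at chr11:84641566-84643580 with rank 29775 there, and the first region outside, at chr10:67920593-67921374, had rank 30047. The smallest gap of a member to another such region was 14518 bp and the largest gap among those left out was 12498 bp. The smallest distance to a gene end was 1112 bp, and the largest among regions left out for it was 979 bp. A further 346 distal intergenic regions were held by 4 libraries.

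Peaks in these regions were narrower than those of the other shared classes within each library, and their strongest peaks stood lower in the list. The median peak width was 1094 bp, 857 bp and 777 bp in Azin2-/- replicates 1, 2 and 8, and 775 bp, 874 bp and 1105 bp in wild-type replicates 1, 2 and 2b. Over the 6 libraries the mean of these medians was 913 ± 149 bp (SD, n = 6). The solitary intragenic regions had 1081 ± 186 bp (SD, n = 6), the clustered distal regions 1131 ± 202 bp and the gene-end regions 1117 ± 196 bp. The intergenic regions were below each of the 3 classes in 6 of 6 libraries, by 168 ± 38.7 bp, 218 ± 57.7 bp and 203 ± 48.6 bp (SD, n = 6). For each of these width comparisons the two-sided exact sign-flip permutation test over libraries gave p = 0.03125, the smallest it allows with 6 libraries. Adjusted over the 6 comparisons planned, this p was also 0.03125. The 6 libraries were measured on the same regions, so their agreement is not independent. Width broke ties of score in the lists, and the edges of a region set its class, so width was not independent of the rule.

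Ranks, with 1 the strongest peak of a library's list, also set the intergenic regions at one end of the 4 classes. The rank is the order of the score that chose the listed peaks, so it is given as a description with no test. The median rank of the strongest peak in an intergenic region was 6839, 5062 and 5226 in Azin2-/- replicates 1, 2 and 8, and 5480, 5343 and 5901 in wild-type replicates 1, 2 and 2b. The mean was 5642 ± 652 (SD, n = 6), against 4294 ± 302 for solitary intragenic, 5062 ± 639 for clustered distal and 3651 ± 372 for gene-end regions. The intergenic median stood lower in the list than that of each other class in 6 of 6 libraries, by 1348 ± 438, 580 ± 314 and 1991 ± 585 places. The deposited fold did not give this order everywhere: in Azin2-/- replicate 8 its median was 3.70 in intergenic regions, 3.62 in intragenic, 3.72 in clustered and 3.65 in gene-end regions.

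**Figure D2:**
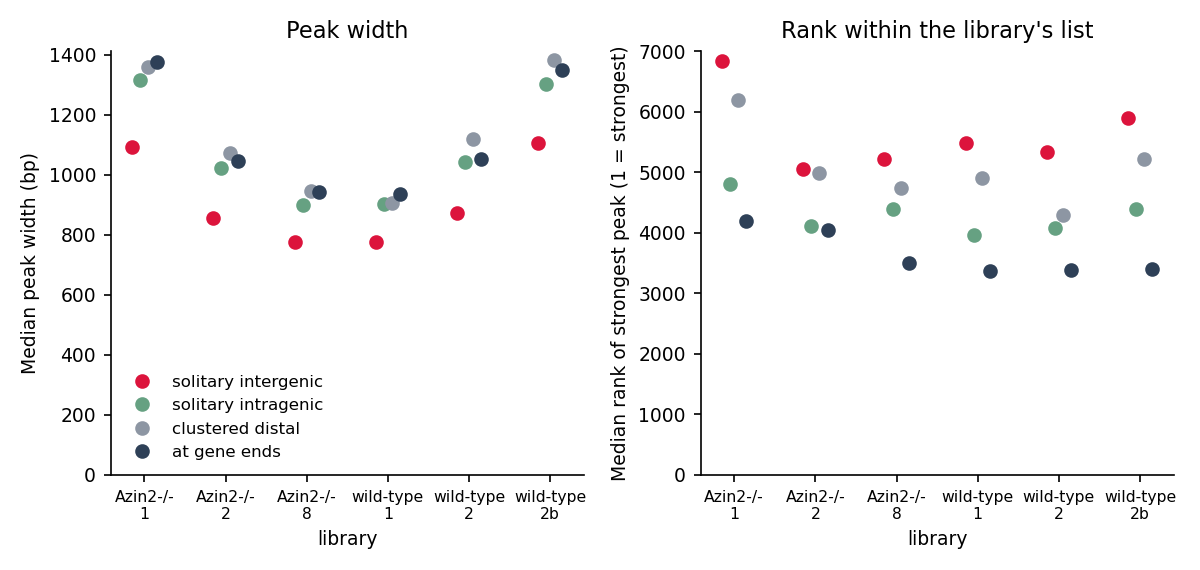
Median peak width in bp (left) and median rank of the strongest peak (right, 1 = strongest) in each library, 1 point per class of shared region. The solitary intergenic regions (red) have the narrowest median and the one lowest in the list in each of the 6 libraries.

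The strongest summits of the libraries fell close together in the intergenic regions. The median distance between them was 59.8 bp, against 77 bp in solitary intragenic, 100 bp in clustered distal and 82 bp in gene-end regions, and 89.8% of the intergenic regions stayed within 250 bp. Narrower peaks leave less room for summits to differ, and no test was made.

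The regions lay on all 20 chromosomes used, with 25 on chromosome 4, 24 on chromosome 12 and 5 on X. They were not evenly placed. Many of those on chromosome 12 had starts between 17991366 and 23009263, with Gm9222, LOC115488002, LOC115488029, Gm40853, Asap2 and Gm38538 as nearest genes. The part of repeated sequence in this was not tested. The median distance to the nearest protein-coding gene end was 22.8 kb (95% interval 17.5 to 31.1 kb), with quartiles of 7.63 and 65.8 kb. Of the 294, 202 (68.7%) lay over 10 kb from every gene end, 48 (16.3%) over 100 kb and 7 over 500 kb. The nearest other shared distal region, inside or outside genes, was a median of 484 kb away. A shared gene-end region lay within 12.5 kb of 36 (12.2%).

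The most remote region, chr15:14798495-14799721, was 1622 kb from Cdh6, which encodes a cadherin. It covered 592, 417 and 739 bp in Azin2-/- replicates 1, 2 and 8, and 0, 497 and 1073 bp in wild-type replicates 1, 2 and 2b. A pair of regions whose nearest gene was the catenin gene Ctnna2 lay 1098 kb and 383 kb from it, and each overlapped a pseudogene. A region 708 kb from Gm6749 on chromosome 6 was narrow, 679 bp, and held ranks 20, 4 and 691 in Azin2-/- replicates 1, 2 and 8. Its ranks were 4117 and 4486 in wild-type replicates 1 and 2, and wild-type replicate 2b had no listed peak there. Of the 10 most remote regions, 3 overlapped a pseudogene and 1 a lncRNA, and only the region 588 kb from F2rl3 was held by all 6 libraries.

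Distance from protein-coding genes did not mean distance from all genes. A gene span of another type lay within 1 kb of 150 regions (51.0%). These were lncRNAs at 100 regions (34.0%, exact binomial 95% interval 28.6 to 39.7%), pseudogenes at 41, microRNAs at 6 and tRNAs at 4. The noncoding starts covered by the 42 regions (14.3%, exact binomial 95% interval 10.5 to 18.8%) belonged to 45 lncRNA genes with 53 start windows. Among regions held by all 6 libraries under the same rule, 43.3% lay at a lncRNA and 21.7% covered a start, and the median distance to a gene end was 16 kb.

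Starts were more frequent the more libraries held a region. Taking every distal intergenic region, solitary or not, the summit lay within 500 bp of a noncoding start in 0.672% of 59227 regions held by 1 library. The share was 1.67% for 2 libraries, 2.83% for 3, 6.36% for 4, 9.5% for 5 and 15.7% (20 of 127) for 6. Regions held by more libraries were wider, 562 bp in the median for 1 library and 1852 bp for 6, whereas the 500 bp limit was the same for all.

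The covered starts were rich in G and C. Their windows had a median of 65.3% G+C (quartiles 55.7 and 70.7%), against 47% in 7196 other noncoding starts away from coding genes and 56.7% in 20885 protein-coding starts. A CpG ratio (observed over expected) of at least 0.6 was found in 32 of the 53 windows (60.4%), in 5.60% of the other noncoding starts and in 48.4% of protein-coding starts. A GC box was present in 56.6%, 8.91% and 46.9% of the 3 sets. A CCAAT box was present in 24.5%, 37.9% and 38.3%, a TATA box in 5.66%, 17.7% and 12.6%, and an ETS motif in 11.3%, 2.82% and 11.7%. An AP-1 motif was in 7.55%, 10.5% and 7.01%, and a C/EBP motif in 5.66%, 13.6% and 10.2%. Windows of 1 gene can overlap, so these shares are descriptions of windows of equal length on both strands.

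**Figure D3:**
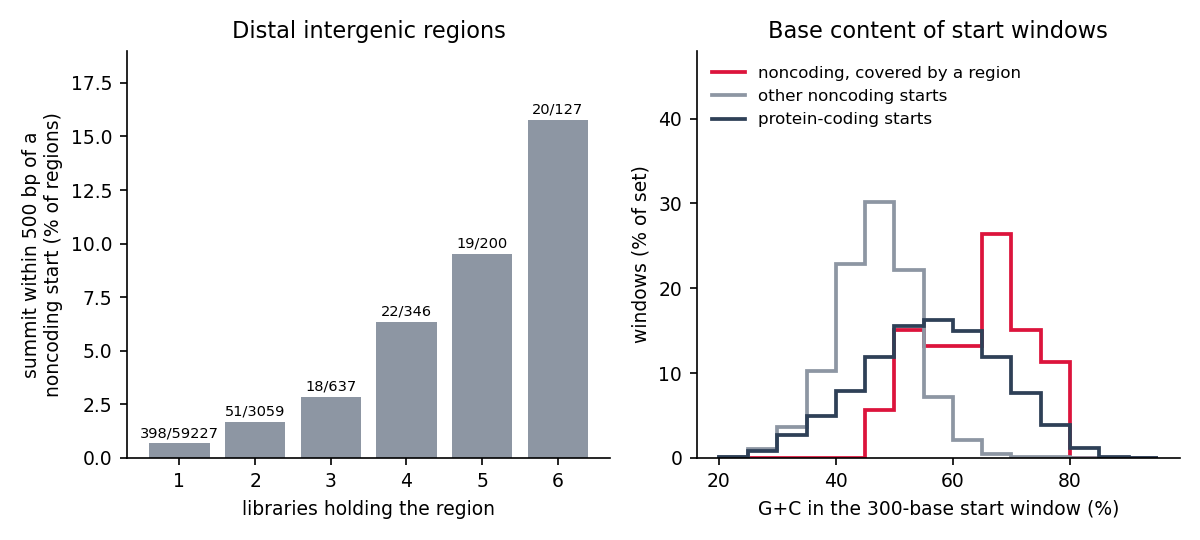
Left, share of distal intergenic regions with the summit within 500 bp of a noncoding start, by the number of libraries holding the region (labels give the counts). Right, G+C content of 300-base start windows in bins of 5%, as a share of each set. The median is 65.3% for covered noncoding starts, 47% for other noncoding starts and 56.7% for protein-coding starts.

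The windows printed above differ in these features. The Dleu2 window has 69% G+C and a CpG ratio of 0.86, with GC boxes and a C/EBP motif. Its TATAAA match lies after the annotated start, not before it. The median summit of the Dleu2 region lay 268 bp upstream of the start. The Gm9530 window has 76.3% G+C and a CpG ratio of 1.01, and the summit lay 22 bp downstream. The Chaserr window has 72.3% G+C, a CCAAT box and GC boxes, with the summit 504 bp downstream. The windows of 2410080I02Rik and Gm14321 have 55% and 59.7% G+C and CpG ratios of 0.50 and 0.38.

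Apart from Norad, the lncRNA regions below were named for their mean rank over all 6 libraries. Good ranks in both genotypes therefore follow from the choice. The Dleu2 region, chr14:61680857-61684038, ranked 697, 1546 and 3580 in Azin2-/- replicates 1, 2 and 8, and 1348, 1211 and 593 in wild-type replicates 1, 2 and 2b. The Gm9530 region, chr1:155082608-155084180, lay 12.2 kb from Ier5, an immediate early gene. Its ranks were 204, 5192 and 2389 in the Azin2-/- libraries and 2572, 680 and 4720 in the wild-type libraries, which overlap. The start of Lncpint, a lncRNA induced by p53, was in a region at chr6:31215672-31218908 with ranks of 1841 to 4948 in Azin2-/- and 805 to 4116 in wild-type. A region with Gm16897 lay 14.8 kb from Cd34, a surface marker of adipose progenitors, and ranked 1067 to 6964 in Azin2-/- and 464 to 2873 in wild-type. Norad, a lncRNA that binds Pumilio proteins, lay across a region near Cnbd2. There the ranks were 8925, 4516 and 4800 in Azin2-/- and 329, 996 and 475 in wild-type, without overlap. Norad was chosen after these values were seen. Of all 294 regions, 24 (8.16%) ranked weaker in every Azin2-/- library than in every wild-type library, and 29 (9.86%) ranked stronger. The share over all merged regions is not given here.

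The region with the best mean rank of all, chr13:51080024-51081256 near Spin1, overlapped no other gene. It ranked 4225, 24 and 1491 in Azin2-/- replicates 1, 2 and 8, and 10, 880 and 53 in wild-type replicates 1, 2 and 2b. Next came regions near Tcf12 and Ppara. Ppara encodes a nuclear receptor that controls fatty acid oxidation, and the region, chr15:85669605-85673450, lay 61.5 kb from it on the side of Wnt7b. It ranked 3029, 2948 and 1437 in Azin2-/- replicates and 61, 19 and 918 in wild-type replicates. Regions near Haao, Rab2a, Ntng2, Kcnrg (Dleu2), Smad7 and Gpr84 were also among the 10 best. Among the 294, 18 had a rank of 100 or better in at least 1 library.

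The microRNA regions included the let-7i locus at chr10:122984868-122987405, 4.66 kb from Mon2, with the summit 173 bp from the middle of the hairpin. let-7 microRNAs act against growth and stem cell genes. The region ranked 6685, 6065 and 4354 in Azin2-/- replicates 1, 2 and 8, and 82, 296 and 129 in wild-type replicates 1, 2 and 2b. Every wild-type rank was thus stronger than every Azin2-/- rank, which makes it 1 of 24 such regions, against 29 that separated the other way. The fold over local background given in the authors' lists was 12.0, 5.46 and 3.37 in the Azin2-/- libraries and 16.4, 12.4 and 24.0 in the wild-type libraries, which describes each peak within its own list.

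The region of miR-132 and miR-212, chr11:75172043-75174238, which CREB is known to activate in neurons, was lacking in wild-type replicate 1. Its scaled cover, the length under listed peaks after all lists were brought to equal total length, was 1777, 1509 and 977 bp in Azin2-/- replicates 1, 2 and 8 and 0, 1758 and 1493 bp in wild-type replicates 1, 2 and 2b. The region of miR-203, chr12:112129735-112132155, had its summit 14 bp from the middle of the hairpin. Its scaled cover was 1959, 1283 and 1399 bp in Azin2-/- and 1488, 2227 and 978 bp in wild-type. The region of miR-760 had 1097, 922 and 1163 bp against 1251, 1481 and 998 bp, and also overlapped a tRNA gene. The region before the miR-17 cluster lay 917 bp from the hairpin of miR-17, and was listed in 5 libraries, with 0 bp in Azin2-/- replicate 8. The region beside miR-193b, a microRNA linked to brown fat differentiation, lay 469 bp from its hairpin and had 1457, 1120 and 1279 bp against 1590, 1664 and 1235 bp. The genotypes overlapped at each of these 5 regions.

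Of all 21627 protein-coding genes, 284 (1.31%) were the nearest gene of a region, which is a label of place and not of a target. Among 21 AP-1 and immediate early genes, which respond within minutes to growth signals, there were 6: Egr3, Fos, Fosl2, Ier5, Jun and Myc. Of 28 adipogenic transcription factors there were 4 (Cebpb, Gata2, Klf4 and Klf9), of 44 patterning and mesenchymal factors 4 (Foxd1, Id1, Irx5 and Osr1), and of 46 Wnt and TGF-beta genes 3 (Inhba, Smad6 and Smad7). For osteochondrogenic regulators it was 1 of 17 (Sp7) and for progenitor markers 1 of 28 (Cd34). There was 0 of 26 adipocyte lipid genes, 0 of 40 matrix genes, 0 of 16 YAP and TEAD genes, 0 of 15 glucocorticoid-response genes and 0 of 18 polyamine genes. The counts cover only the genes of these fixed lists and do not show that a class was absent. Matn1, Fabp5, Elovl5, Wnt2b and Wnt7b, which are not on the lists, were also nearest to a region. Klf9 was counted only among the adipogenic factors. The part of gene spacing in these counts was not tested.

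Since at least 5 of the 6 libraries must hold a region, those beside immediate early genes were held in both genotypes by the rule. Jun encodes a subunit of AP-1, and the region 108 kb from it, across Junos, had 1098, 558 and 2269 bp of scaled cover in Azin2-/- replicates 1, 2 and 8 and 2072, 909 and 638 bp in wild-type replicates 1, 2 and 2b. The region 47.2 kb from Myc lay in Pvt1, a lncRNA downstream of that growth regulator. It had 541, 720 and 801 bp in Azin2-/- and 1678, 709 and 1377 bp in wild-type. Fosl2 encodes another AP-1 subunit. Its region, 2.00 kb from the gene end, had 888, 1079 and 653 bp against 837, 1325 and 1495 bp. A shared gene-end region lay 0.089 kb from the Fosl2 region. The groups overlapped at all 3, and log2 differences (Azin2-/- minus wild-type) were 0.07 ± 0.51 (SE) for Jun, −0.66 ± 0.51 for Myc and −0.39 ± 0.45 for Fosl2.

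Smad7 and Smad6 encode inhibitors of TGF-beta and BMP signalling. The region 23.6 kb from Smad7 had the most even cover among these, 1317, 1342 and 1331 bp in Azin2-/- replicates 1, 2 and 8 and 1400, 1478 and 1043 bp in wild-type replicates 1, 2 and 2b. The region 24.6 kb from Smad6 had 933, 1100 and 423 bp against 1430, 932 and 1771 bp. Klf4, a factor that acts early in adipogenesis, lay 118 kb from a region with 893, 686 and 747 bp against 1070, 542 and 607 bp. The regions near the patterning genes Irx5, Id1, Osr1 and Foxd1 were each held by 5 libraries. Wild-type replicate 1 was the lacking one for Id1, Osr1 and Foxd1, and Azin2-/- replicate 8 for Irx5.

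Whether the genotypes differed at these regions was tested on log2(scaled cover + 200 bp), fitted with limma over the 23909 regions with a mean of at least 200 bp. Of the 294 intergenic regions 293 entered the fit, and a narrow one near Adra2a fell under the minimum. In bulk chromatin, fewer cells with an acetylated region and less acetylation per cell cannot be told apart. With limma and Benjamini-Hochberg adjustment, 0 of 293 were higher in Azin2-/- (background 0% of all regions tested) and 0 were lower (background 0.00418%), and the smallest adjusted p among them was 0.6. At an unadjusted p under 0.05, 4 were higher (1.37%, background 3.8%) and 9 lower (3.07%, background 1.56%). Lower calls also outnumbered higher ones in the other shared classes. They were 38 against 20 of 945 solitary intragenic, 7 against 3 of 90 clustered distal and 208 against 76 of 5571 gene-end regions. Of the background, 17010 regions were held by 4 or fewer libraries and gave 805 of its 908 higher calls. By the rule at most 1 library can have 0 bp in an intergenic region, which limits its difference. The genotypes did not overlap at 17 intergenic regions that were higher in Azin2-/- (5.8%, background 4.78%) and 19 that were lower (6.48%, background 2.54%). In the other shared classes 4.45 to 5.56% did not overlap and were higher, and 6.24 to 13.3% did not overlap and were lower. Without scaling, the split of the intergenic regions was 22 higher (7.51%, background 4.79%) and 8 lower (2.73%, background 1.01%). Without the minimum on cover, over 127635 regions, 1 intergenic region was called lower in Azin2-/-, that of Cebpb (limma adjusted p = 0.00174). In that fit 16 regions (0.0125%) were called higher and 48 (0.0376%) lower over all. The log2 difference of the Cebpb region was −2.06 with and without the minimum. The fits differed only in the added regions under 200 bp, and why the call appeared was not tested. The genotypes overlapped at this region. A p that misses the threshold does not show that the genotypes were alike.

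The median log2 difference of the intergenic regions was 0.23, against 0.15 over all regions tested, with 178 of 293 above 0. Its sign rested on wild-type replicate 1: without that library the median was −0.079, with 129 above 0. Without scaling, the median of all regions moved up by 0.15 to 0.30, and that of the intergenic regions was also 0.30. Relative to all regions, the intergenic regions thus stood 0.08 higher with scaling and level with them without it. A library without a listed peak enters with 0 bp and pulls its genotype down. The 101 regions that wild-type replicate 1 lacked had a median of 0.82, and 101 of 101 were above 0. The 38 regions lacking in Azin2-/- replicate 2 or 8 had a median of −1.0 and 38 of 38 were below 0.

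The 110 regions held by all 6 libraries carry no such 0, and they had a median of −0.17, with 76 of 110 (69.1%) below 0. The same held for the other classes held by all 6 libraries, with 60 to 65.1% below 0. Their medians were −0.11 for solitary intragenic, −0.20 for clustered distal and −0.10 for gene-end regions. Scaling multiplied cover by 0.81, 0.98 and 1.14 in Azin2-/- replicates 1, 2 and 8. In wild-type replicates 1, 2 and 2b the factors were 1.30, 1.09 and 0.85. Without scaling the median over all regions tested was higher, 0.30 against 0.15. Unscaled medians of the regions held by all 6 libraries are not given here, and the part of scaling in them was not tested. The 42 regions over a noncoding start had a median of −0.15, and the 251 others 0.33. Regions over a start were more often held by all 6 libraries, 25 of 42. As a share of all listed cover, the 294 regions took 1.16, 1.11 and 1.04% in Azin2-/- replicates 1, 2 and 8 and 0.921, 1.22 and 1.19% in wild-type replicates 1, 2 and 2b, which overlap.

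**Figure D4:**
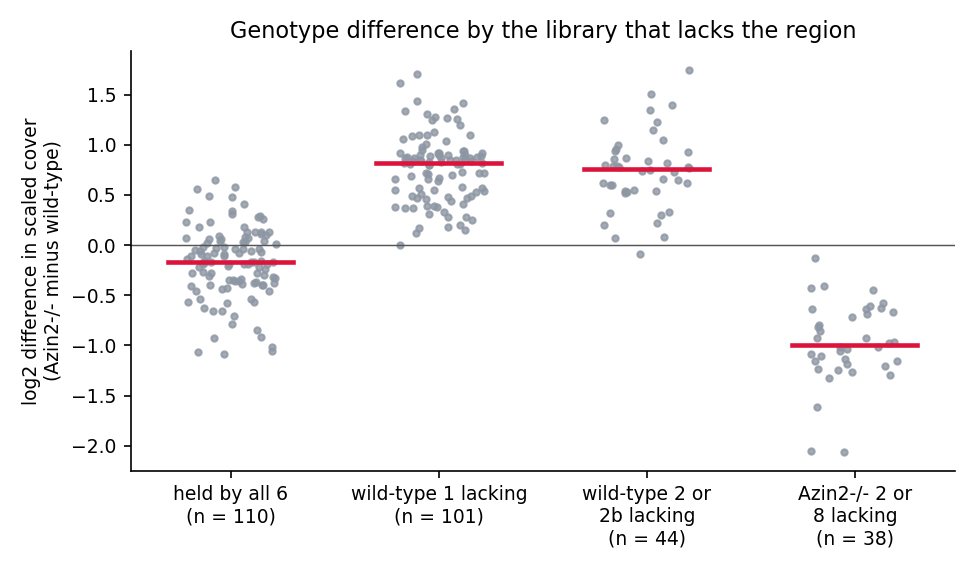
Log2 difference in scaled cover, Azin2-/- minus wild-type (y axis), of the 293 regions tested, 1 grey point each, grouped by which library lacks a listed peak (the sideways scatter has no meaning). Red lines are medians, which are −0.17, 0.82, 0.76 and −1.0 from left to right.

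The 5 regions of smallest p in the lower direction included 2 beside adipogenic factors, and none passed (limma adjusted p = 0.6 for each of the 10 regions named here). Cebpb encodes C/EBPβ, an early driver of adipogenesis. The region chr2:167772540-167779108, 82.1 kb from Cebpb and across the starts of Gm14321 and Gm32287, had 1389, 0 and 894 bp of scaled cover in Azin2-/- replicates 1, 2 and 8. In wild-type replicates 1, 2 and 2b it had 3437, 1133 and 4987 bp. Wild-type replicate 2 fell within the Azin2-/- range, so the groups overlapped, and the log2 difference was −2.06 ± 0.65 (SE, n = 3 and 3 libraries). It was −1.15 without Azin2-/- replicate 2.

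Klf9 encodes a glucocorticoid-induced factor that acts in adipogenesis. The region chr19:23134001-23137516, 3.71 kb from Klf9, holds the start of 2410080I02Rik, and it had 1283, 562 and 834 bp in Azin2-/- and 1514, 1742 and 2991 bp in wild-type. The groups did not overlap, and the log2 difference was −1.06 ± 0.37 (SE). A shared gene-end region lay 2.37 kb from it.

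The let-7i region had 1371, 546 and 866 bp in Azin2-/- replicates 1, 2 and 8 and 2115, 2069 and 1760 bp in wild-type replicates 1, 2 and 2b. The groups did not overlap in cover, which is not independent of the ranks above, and the log2 difference was −1.01 ± 0.35 (SE). The region chr15:103303578-103306757 lay 1.48 kb from Gpr84, a receptor for medium-chain fatty acids known from macrophages, and 3.71 kb from Copz1, a coatomer subunit. It had 1054, 1087 and 1372 bp against 2150, 2317 and 2009 bp, with a log2 difference of −0.79 ± 0.26, the smallest SE of the 10. Macrophage markers had listed peaks at 0 to 1 genes in the wild-type libraries and 2 to 3 in the Azin2-/- libraries, and their part was not tested. The region chr4:101354545-101358479, 58.0 kb from the adenylate kinase gene Ak4, holds the start of E130102H24Rik. It had 1253, 405 and 0 bp against 4206, 1249 and 1761 bp, so Azin2-/- replicate 1 lay just above wild-type replicate 2 and the groups overlapped. Its log2 difference was −2.05 ± 0.67 (SE) and was −1.31 without Azin2-/- replicate 8.

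The 5 regions of smallest p in the higher direction were each lacking in 1 wild-type library. Gata2 encodes a factor that holds preadipocytes back from differentiation. The region chr6:88188973-88191820, 2.07 kb from Gata2, had 1817, 2371 and 693 bp in Azin2-/- replicates 1, 2 and 8 and 0, 773 and 626 bp in wild-type replicates 1, 2 and 2b. The groups overlapped, and the log2 difference was 1.62 ± 0.71 (SE), or 0.90 without wild-type replicate 1. A shared gene-end region lay 1.26 kb from the Gata2 region. The region 8.12 kb from Eif3f, a translation initiation factor, had 1416, 1820 and 1536 bp against 0, 935 and 516 bp, with a log2 difference of 1.71 ± 0.67 that was 0.99 without wild-type replicate 1.

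The region near Matn1, a cartilage matrix gene 176 kb away, had 1228, 1703 and 1637 bp against 0, 1220 and 683 bp, and its log2 difference of 1.44 ± 0.68 was 0.61 without wild-type replicate 1. The region near Ulbp1, a ligand gene of the NKG2D receptor, overlapped a pseudogene and had 1952, 1940 and 1115 bp against 1027, 453 and 0 bp. Its log2 difference of 1.75 ± 0.68 was 1.02 without wild-type replicate 2b. The region 18 kb from Ddr1, a collagen receptor, had 985, 1307 and 1218 bp against 462, 644 and 0 bp. Its log2 difference of 1.5 ± 0.73 was 0.86 without wild-type replicate 2b. At these last 4 regions the genotypes did not overlap.

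**Figure D5:**
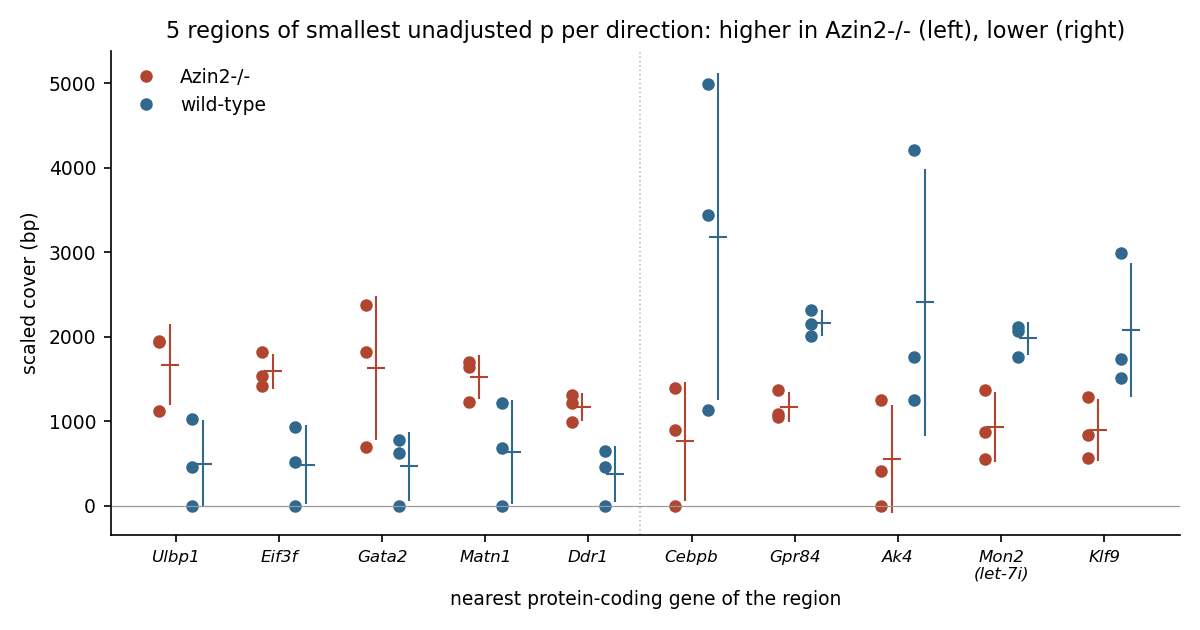
Scaled cover in bp (y axis) of the 5 regions of smallest unadjusted p in each direction, named by their nearest protein-coding gene, with 1 point per library and the mean ± SD of each genotype (n = 3) beside the points. Of the 5 higher regions each has a wild-type library at 0 bp, and the regions of Gpr84, let-7i and Klf9 have all 6 libraries above 0 and no overlap. None of the 10 passed after adjustment.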

How the data were processed

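H3K27ac ChIP-seq gave 1 deposited peak list per library for 3 Azin2-/- and 3 wild-type libraries, and the input libraries were not analysed here. Per the submitters' processing notes the builds are GRCm38 and mm10. No aligner, peak caller or control library can be named, each being not given in the sources used here. For each peak the authors deposited a position, a score, a fold ratio over local background, and −log10 p and −log10 q values. In nearly all peaks the deposited score is 10 times the −log10 p, cut to a whole number. These values are the authors' and served only to rank, filter and describe peaks within a list. Read totals are unknown, so no value here has a counting interval from depth.

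Peaks with equal coordinates were counted once. The 30000 of highest score per library (ties by width, then position) were merged by 1 bp. Gene spans, start windows and microRNAs are from RefSeq GRCm38.p6 (21627 protein-coding and 27923 other spans). All starts and microRNAs printed were found there by position. No genome sequence was used here, so the planned motif description of peak summits was not run, and start windows took its place after the data were seen. Regions on chromosome 18 are counted but their sequences are not printed.

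Cover is the length of a region under a library's listed peaks, scaled to equal total cover, and a pseudocount of 200 bp was added before log2. limma 3.58.1 (R 4.3.3, eBayes with a mean trend) was fitted to all regions with a mean of at least 200 bp, with all 6 libraries and no covariate. A log2 difference on this scale understates changes of narrow regions. Classes were compared by two-sided exact sign-flip tests over libraries (Python 3.11.15, scipy 1.17.1), with Benjamini-Hochberg adjustment. The planned test of ranks is not reported, since the rank is the value that chose the listed peaks. The members, gene lists and tests were chosen with earlier results of these data known.

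Regions were named by a rule: those passing an adjusted p under 0.05, or else the 5 of smallest p in each direction. It also names the 10 of best mean rank (30001 for a library without a listed peak), the 10 farthest from gene ends, the 10 best ranked at a lncRNA or microRNA, and up to 5 per gene list. Not all of them are printed. Alternatives were other list lengths, a q-value limit, other pseudocounts, no scaling, no minimum, the replicate number as a block, an average of wild-type replicates 2 and 2b, and each library left out.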

Additional observations from a re-analysis of the deposited data

How the results depend on the processing

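The number of regions was 294 and moved most with the number of libraries required (616 at 4 or more, 120 at all 6) and with spans of all gene types in place of protein-coding ones (146). With a library left out and 4 of the other 5 required, it was 296 to 511, the highest values being 511 (wild-type replicate 1 out) and 449 (wild-type replicate 2b out). The share covering a noncoding start was 10.4 to 14.2% over these (10.4% with wild-type replicate 1 out, 10.5% with 2b out), an alternative chosen after seeing the data, and 21.7% in regions held by all 6. There the median distance to a gene end was 16 kb and 43.3% lay at a lncRNA.

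With 5 libraries the exact sign-flip permutation test cannot go below p = 0.0625, and each width comparison gave that value with any library left out. Width differences were then −174 to −152 bp from solitary intragenic, −236 to −186 bp from clustered and −231 to −187 bp from gene-end regions. Rank differences, given without a test, were 1235 to 2031, 841 to 1590 and 1881 to 2851. In regions held by all 6 libraries they were 819 from intragenic and 479 from clustered regions, and in lists of 15000 peaks 491 from clustered regions. The causes were not tested.

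No intergenic region was called at a limma adjusted p under 0.05 under any alternative but 1. Without a minimum on cover the Cebpb region was called lower, at an unchanged log2 difference of −2.06. Counts at an unadjusted p under 0.05 were 4 higher and 9 lower. Beside each changed count below stands the share of the intergenic regions and then that of all regions tested. The shares of the main counts are given above. The higher count was 19 in lists of 15000 peaks (6.53 and 3.83%), 12 at a q-value of 0.05 or less (4.11 and 3.39%), 1 with a pseudocount of 50 bp (0.341 and 2.97%), 7 without the minimum (2.38 and 0.662%) and 9 with wild-type replicates 2 and 2b averaged (3.07 and 3.94%). With a library left out the higher count was 0 to 17. It was 17 with wild-type replicate 2 out (5.8 and 4.53%). With wild-type replicate 1 out it was 8 (2.73 and 2.82%), and with 2b out also 8 (2.73 and 4.73%). With Azin2-/- replicate 1 out it was 0 (0 and 2.09%), with replicate 2 out 0 (0 and 4.97%) and with replicate 8 out 1 (0.34 and 6.81%). The lower count ranged from 5 with wild-type replicate 2b out (1.71 and 1.55%) to 12 with wild-type replicate 1 out (4.1 and 1.74%). Counts without overlap were 17 higher and 19 lower, and became 27 higher in lists of 15000 peaks (9.28 and 5.34%), 11 higher at the q-value limit (3.77 and 3.25%), 8 lower without scaling (2.73 and 1.01%), and 31 higher (10.6 and 8.18%) and 46 lower (15.7 and 7.32%) with the average of 2 and 2b. With a library left out they were 24 to 43 higher (8.19 to 14.7%, all regions 4.85 to 11%), as fewer libraries overlap less. The lower ones were then 27 to 45 (9.22 to 15.4%, all regions 2.95 to 5.95%). The median log2 difference of 0.23 was 0.14 at the q-value limit, 0.53 and 0.10 with pseudocounts of 50 and 500 bp, and −0.079 to 0.28 with a library left out, the lowest without wild-type replicate 1. The 5 regions of smallest p in each direction kept it under all alternatives run.

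The labels share replicate numbers 1 and 2 only. Deviations of same-numbered libraries correlated at −0.05 and 0.08 over regions, so the numbers were not taken as pairs. With the replicate block, 0 regions passed in either direction, 2 were higher (0.683%, all regions 9.77%) and 7 lower (2.39%, all regions 1.49%) at an unadjusted p under 0.05, 17 and 19 did not overlap, and the median was 0.24.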
